A study of Mus musculus with 24 samples.

Results

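Aged mice that had lived in an enriched environment (ENR) for 3 months were compared with aged mice kept in standard housing (STD), in order to see which stretches of dentate gyrus DNA differed in CpG methylation between them. The comparison used 16 of the 24 mice of the experiment. They were 8 aged STD and 8 aged ENR mice, all female C57BL/6JRj animals aged 17 months, and the ENR mice had been moved to enrichment at 14 months. The other 8 mice, STD animals aged 3 months, were not used to keep or drop tiles, but their levels define the classes of low and high methylation and the coverage ratio used further on. ENR combines a large enclosure, tunnels and regularly rearranged toys with life in a bigger group, and per the methods the enriched mice shared an enclosure while control mice shared small cages. The labels do not tie a mouse to a cage, so housing and cage cannot be told apart. Methylation was measured by reduced representation bisulfite sequencing (RRBS), which sequences CpG-rich restriction fragments after bisulfite has turned unmethylated cytosines into uracil. Autosomal CpGs were averaged per mouse in fixed 1-kb tiles. A tile was kept when it held 3 or more CpG rows and when 6 or more mice of each group had a value, which left 48053 of 137950 tiles with any measured CpG. In 280 of them every mouse had the same value, and the remaining 47773 were tested.

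CpG methylation is placed and copied by DNA methyltransferases and can be removed by oxidation through TET enzymes. Promoters rich in CpGs are mostly unmethylated, whereas gene bodies, repeats and intergenic DNA are mostly methylated. The dentate gyrus is the part of the hippocampus in which granule neurons are born throughout life, and enrichment is known for raising the survival of these new neurons. The tissue was dissected as a whole, so a change in the share of a cell type and a change of methylation within cells cannot be told apart.

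No tile passed the test. With limma and Benjamini-Hochberg adjustment, 0 of 47773 tiles (0.0%) had an adjusted p under 0.05, and the lowest adjusted p was 0.908. At an unadjusted p under 0.05 there were 1721 tiles (3.6%), of which 731 (1.53%) were higher and 990 (2.07%) were lower in ENR mice, and 13 tiles had an unadjusted p under 0.001. The tile differences were centred slightly below 0, with a median of −0.199 percentage points, and 52.4% of the tiles were lower in ENR mice. Most of them were small, the 5th and the 95th percentile being −14.4 and 13.1 points. A difference over 25 points was found at 879 tiles (1.84%), 374 higher and 505 lower in ENR mice, and 389 of these 879 had an unadjusted p under 0.05. The 95% confidence interval of a tile's difference had a median half-width of 10.2 points, and it lay within 25 points of 0 at 70.6% of the tiles and within 10 points of 0 at 38.7%. One mouse, aged STD 5, stood apart in coverage. Without it 42202 tiles were tested, again 0 passed, and 1581 had an unadjusted p under 0.05, 604 higher and 977 lower in ENR mice. The median difference was then −0.319 points.

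**Figure D1:**
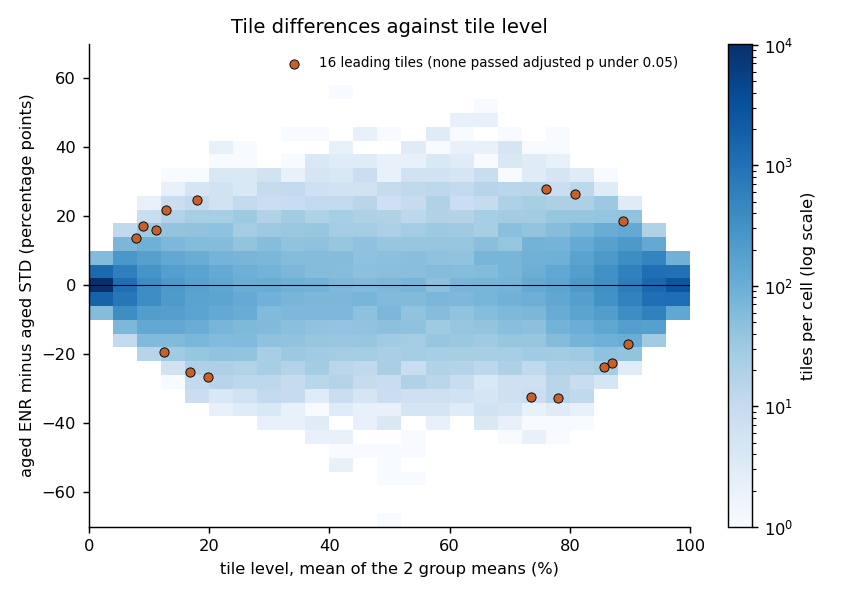
Difference between the group means (aged ENR minus aged STD, percentage points) against the level of the tile (mean of both group means, percent) for the 47773 tested tiles, coloured by the number of tiles per cell on a log scale. The differences spread around 0 and are narrowest at both ends of the scale, and the 16 leading tiles (orange) differ by 13.8 to 32.7 points in size without having passed the test.

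The width of a tile's interval, which reflects the spread between mice, went with its level. The 4 classes of level also differed in CpG rows per tile, with medians of 14, 5, 4 and 5 from the lowest level up. Level and number of CpG rows were not separated. Among the 16982 tiles under 10% in young mice, the median half-width was 3.43 points and 96.2% of the intervals lay within 25 points of 0. Among the 8537 tiles at 10 to 50% it was 22.0 points, with 38.2% of the intervals inside. At 50 to 90% (10405 tiles) it was 21.6 points, and at 90% or more (11849 tiles) it was 9.15 points. Promoter tiles, whose midpoint lay within 1 kb of a transcription start, had 500 of 17154 tiles (2.91%) with an unadjusted p under 0.05. The share was 3.65% of 2658 exonic, 3.98% of 13255 intronic and 4.06% of 14706 intergenic tiles, beside 3.6% of all tiles.

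The tiles with the lowest p values among those with a difference of at least 10 points and values in at least 7 mice of each group are described next, 8 in each direction, and none of them had passed the test. They are named by the protein-coding gene with the nearest start. Of the 16, 6 lay in an intron or an exon, 5 were intergenic and 5 were promoter tiles. A measured stretch of some of them is printed to show how the measured CpGs lie around the restriction sites. Each is GRCm38 reference sequence, lower case, with the measured CpGs in capitals, and need not hold all CpGs of its tile. A CCGG in it is the site at which the restriction enzyme of RRBS cuts.
4921517D22Rik (chr13:59696568-59696695, plus strand): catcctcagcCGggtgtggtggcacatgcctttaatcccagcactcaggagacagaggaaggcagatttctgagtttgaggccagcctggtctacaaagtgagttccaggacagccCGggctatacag
Pik3cg (chr12:32134908-32134979, plus strand): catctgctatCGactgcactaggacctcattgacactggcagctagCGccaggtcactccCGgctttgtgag
Casr (chr16:36530776-36530892, plus strand): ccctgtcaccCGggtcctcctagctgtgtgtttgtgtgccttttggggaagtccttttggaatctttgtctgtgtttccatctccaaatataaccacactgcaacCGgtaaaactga
Alx4 (chr2:93641787-93641908, plus strand): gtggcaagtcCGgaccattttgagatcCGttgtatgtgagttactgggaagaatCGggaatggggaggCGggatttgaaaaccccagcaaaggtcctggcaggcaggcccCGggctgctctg
Otop1 (chr5:38282013-38282138, plus strand): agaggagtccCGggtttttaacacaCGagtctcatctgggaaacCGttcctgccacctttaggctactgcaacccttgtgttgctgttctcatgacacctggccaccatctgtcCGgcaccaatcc
Dse (chr10:34188551-34188633, plus strand): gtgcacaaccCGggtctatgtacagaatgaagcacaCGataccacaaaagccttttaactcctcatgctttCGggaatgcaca
Rab11fip2 (chr19:60005775-60005821, plus strand): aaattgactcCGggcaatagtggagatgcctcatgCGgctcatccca

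The lowest p value belonged to the intergenic tile nearest to 4921517D22Rik (chr13:59696000-59696999, 2392 bp from the start). In its 4 CpG rows the aged STD mice ranged from 51.3 to 70.4% (median 63.1%) and the aged ENR mice from 76.2 to 100% (median 89.4%). Here the groups did not overlap in the 15 mice with a value. The tile was chosen for its low p, so this adds no support. The difference was 28.0 points (95% confidence interval 17.3 to 38.7, unadjusted p = 4.71e-05, limma), and aged STD 5 had no value. Young mice stood between both groups with a wide spread, at 79.7% ± 16.1 (SD, n = 8). The stretch printed above is soft-masked as repeat sequence over 100% of its length, so reads could belong to other copies. Over the single CpGs the difference ran from −5.83 to 50.6 points, and 3 of 4 had the sign of the tile.

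The other tiles with higher values in ENR mice fell into a highly and a sparsely methylated set. In an intergenic tile 43954 bp from Pik3cg, which encodes a catalytic subunit of phosphoinositide 3-kinase, the aged STD mice had 79.6% ± 10.6 (SD, n = 7) and the aged ENR mice 98.2% ± 3.18 (SD, n = 7), but aged STD 1 reached 100% and the groups overlapped. In one 131965 bp from Rbm19, a gene of ribosome assembly, the means were 67.6% ± 14.5 (SD, n = 7) and 94.2% ± 8.62 (SD, n = 7). The sparsely methylated set had a different form, in that most STD mice were at 0. In an intron of Casr, the calcium-sensing receptor, 6 of 7 STD values were 0 and one was 14.3%, whereas the ENR mice ranged from 5.29 to 50% (median 18.9%). At the promoter of Rgs3, a regulator of G protein signalling, the STD mice had 0.982% ± 2.60 (SD, n = 7) and the ENR mice 14.8% ± 9.96 (SD, n = 8), 7 of the 8 ENR mice lying above every STD mouse. The promoter tile of Pianp had 0.42% ± 1.11 (SD, n = 7) in STD and 17.6% ± 13.8 (SD, n = 8) in ENR mice, with 2 ENR mice at 0. Bdkrb2, the bradykinin B2 receptor, had 5.61% ± 11.7 (SD, n = 7) and 30.5% ± 15.6 (SD, n = 8) at its promoter, and 6 of the 7 CpGs had the same sign. These 6 lay on the minus strand with values in 3 to 5 STD mice, and the CpG on the plus strand differed by −1.54 points. In an intron of Lhfpl3 the values were 3.22% ± 6.19 (SD, n = 8) and 19.2% ± 12.1 (SD, n = 7), while the young mice ranged from 0 to 94.2%.

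Tiles with lower values in ENR mice were likewise at the low or the high end. Upstream of Alx4, a homeobox transcription factor of skull and limb development, the STD mice ranged from 9.74 to 37.8% (median 19%) and the ENR mice from 0 to 14.7% (median 0). The difference was −19.2 points (95% confidence interval −28.9 to −9.52, unadjusted p = 0.000688, limma) over 11 CpG rows, and 6 of the 7 ENR mice were below every STD mouse. It had the same sign on both strands (−19.0 points on the plus and −7.58 on the minus strand), and in the next tile downstream on the chromosome the difference was 2.75 points. Hrh2, the histamine H2 receptor, had 29.4% ± 18.6 (SD, n = 8) in STD and 4.18% ± 5.05 (SD, n = 8) in ENR mice in an intergenic tile 50493 bp away, and 7 of 8 ENR mice lay below every STD mouse. An intronic tile of Myrfl had 33.1% ± 18.2 (SD, n = 8) and 6.46% ± 7.81 (SD, n = 8) with 1 STD mouse and 4 ENR mice at 0.

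At the high end, an intronic tile of Otop1, a proton channel of sour taste cells, had 89.9% ± 10.8 (SD, n = 8) in STD and 57.4% ± 17.3 (SD, n = 7) in ENR mice. Dse, an enzyme of dermatan sulfate synthesis, had 94.3% ± 10.2 (SD, n = 7) and 61.6% ± 20.6 (SD, n = 8) in an intron. The tile assigned to Plpp5 lies in an exon of Nsd3, a histone methyltransferase gene, and had 98.2% ± 3.45 (SD, n = 8) in STD and 81.3% ± 10.96 (SD, n = 8) in ENR mice. Here 7 of 8 ENR mice were below every STD mouse, as they were at the promoter tile of Hhatl, with 97.5% ± 3.99 (SD, n = 7) and 73.8% ± 15.8 (SD, n = 8). An intergenic tile 61846 bp from Rab11fip2, an effector of recycling endosomes, had 98.3% ± 4.80 (SD, n = 8) and 75.8% ± 16.3 (SD, n = 8), and a single STD mouse was below 100%. Without aged STD 5, the 16 differences kept their sign and lay between −33.6 and 28.0 points. The tiles were chosen by low p with all mice, so this does not test them. Adjoining tiles within 2 kb were tested at 5 of the 16, and their 6 differences lay between −4.42 and 2.75 points with unadjusted p of at least 0.426. Of the 16995 tested tiles with a value in all 16 mice, 2 had groups that did not overlap. No such share was computed for tiles with a missing value, such as that of 4921517D22Rik. Counts of ENR mice beyond every STD mouse follow in part from the choice of these tiles by low p.

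Few CpGs stood behind these tile values, and the mice did not all cover the same ones. At Hrh2 a single CpG on the minus strand differed by −54.4 points (56.1% in 8 STD and 1.71% in 7 ENR mice), while the 3 on the plus strand differed by 7.42, −5.10 and −11.2 points. The Hhatl tile rested likewise on 1 of 3 CpGs, with −55.7 points over 3 STD and 7 ENR mice, and the others differed by −2.09 and −5.96 points. At Pianp 2 of 5 CpGs were at 0 in both groups, and the CpG with the largest difference (3.92 and 70.5%) had values in 3 STD and 5 ENR mice. One CpG of Casr differed by 43.8 points and the other two by 3.7 and 12.0 points. The plus strand of the Otop1 tile differed by −65.8 points over 5 STD and 3 ENR mice and its minus strand by −13.4 points. At Pik3cg the CpG on the plus strand differed by 40.8 points over 6 STD and 3 ENR mice, and the minus strand by 9.99 points. For the Plpp5 tile these values were −34.6 and −9.56 points. The part of uneven coverage of CpGs in the tile differences was not tested.

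**Figure D2:**
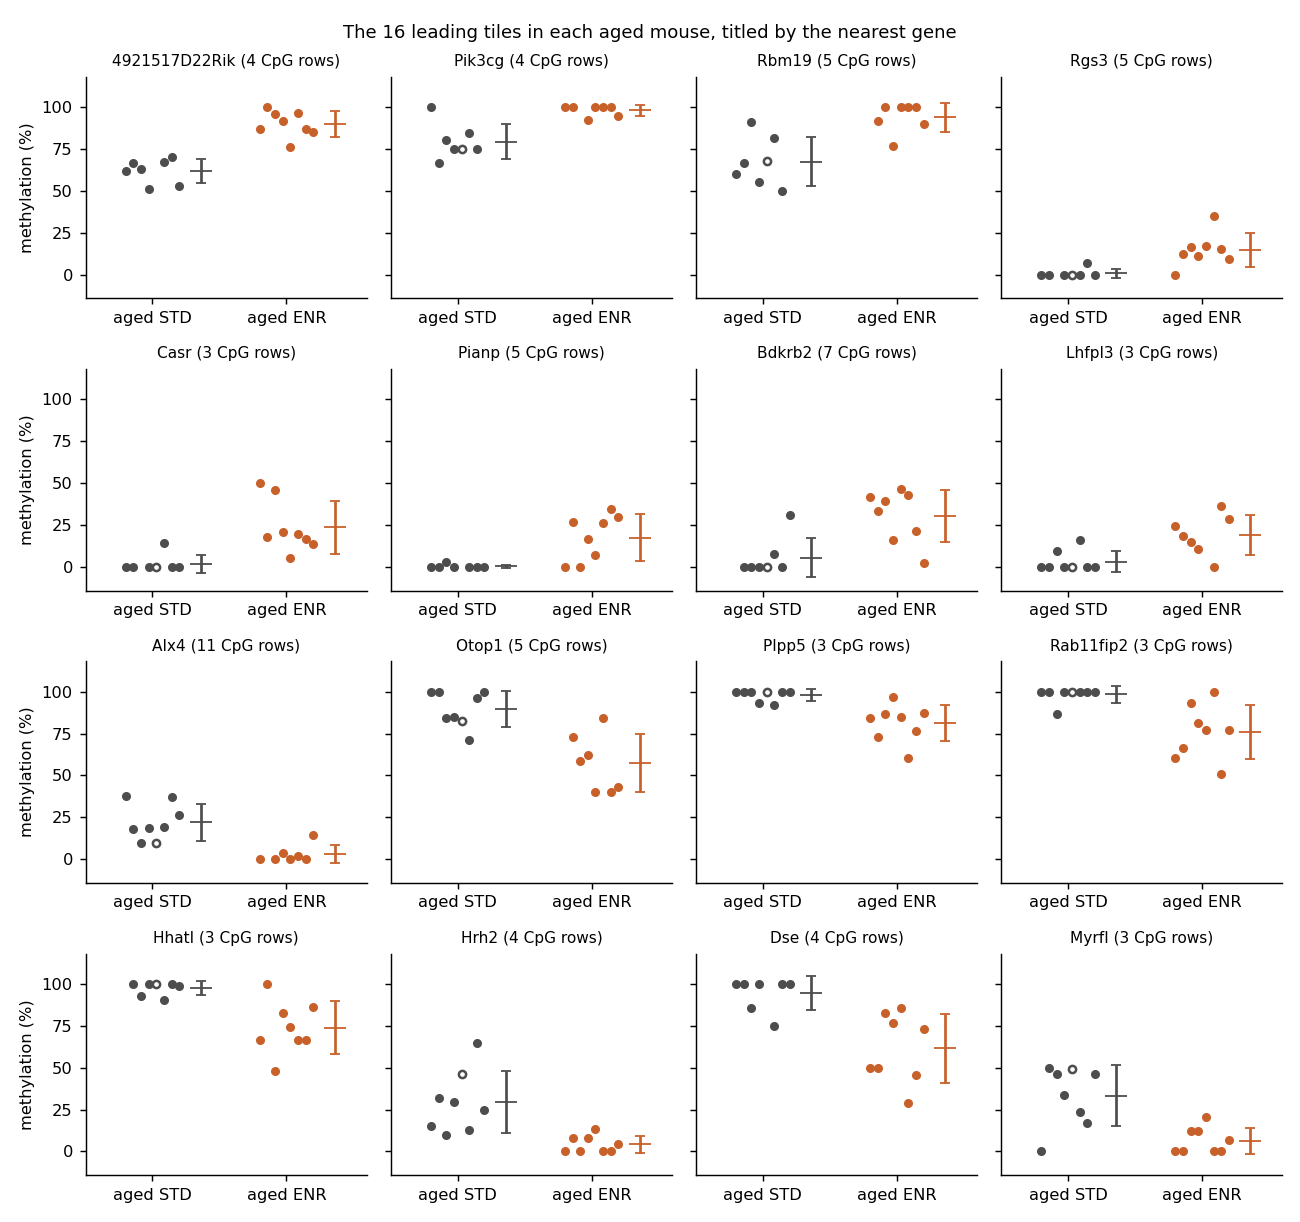
Methylation (percent) of the 16 leading tiles in each aged STD (grey) and aged ENR (orange) mouse, titled by the nearest gene and the number of CpG rows. Points are mice, the open point is aged STD 5, and bars give the mean ± SD. The tiles were chosen by low p, and the groups separate fully at 4921517D22Rik alone.

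Among promoter tiles, the lowest p values belonged to Pgls, Ttc39b and Sez6 in the direction of higher values and to Hoxc4, Tmem59 and Alx4 in the other. Pgls, an enzyme of the pentose phosphate pathway, had 0.00855% ± 0.0242 (SD, n = 8) in STD and 3.58% ± 2.23 (SD, n = 8) in ENR mice over 22 CpG rows. Ttc39b had 0.349% ± 0.86 (SD, n = 8) and 4.64% ± 2.89 (SD, n = 8). Sez6, which shapes dendrites and excitatory synapses, had 2.71% ± 6.63 (SD, n = 6) and 24.8% ± 12.5 (SD, n = 7). At a promoter tile assigned to Hoxc4, 25105 bp from its start, the values were 12.9% ± 4.57 (SD, n = 8) and 3.69% ± 3.26 (SD, n = 8). Tmem59 had 5.14% ± 2.74 (SD, n = 8) and 0.539% ± 0.909 (SD, n = 8) over 27 CpG rows.

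The mean over tiles was then compared per mouse, over the 17016 tiles in which all 16 mice had a value. The aged STD mice averaged 33.0% ± 1.30 (SD, n = 8) and the aged ENR mice 32.7% ± 0.314 (SD, n = 8). This difference of −0.329 points was smaller than the SD of the former (exact permutation test, two-sided like all that follow, p = 0.577). Aged STD 5 had 29.9%, whereas the other STD mice ranged from 32.9 to 34.3%, and the ENR mice ranged from 32.2 to 33.0%. Without aged STD 5 the difference was −0.764 points (exact permutation test, p = 0.000622), so that 1 mouse decided the outcome. Leaving out any other mouse gave p values of 0.551 to 0.889 in the exact permutation test.

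Coverage moved with this difference. The share of CpGs with a value among those at 90% or more in young mice, divided by the share among those at 10% or less, was 0.478 in aged STD 5 and 1.32 in aged STD 3. It was 0.994 ± 0.233 (SD, n = 8) in STD and 0.960 ± 0.0404 (SD, n = 8) in ENR mice (exact permutation test, p = 0.684). Without aged STD 5 it was 1.07 in STD mice (exact permutation test, p = 0.0014). Across the 16 mice this coverage ratio went with the mean methylation, with Pearson's r = 0.965 (permutation p = 1e-05, the smallest these permutations can give) and Spearman's rho = 0.812 (permutation p = 0.00027), and r was 0.848 without aged STD 3 and 5. Within the 8 STD mice r was 0.982 (exact permutation p = 0.000918; rho = 0.905, exact permutation p = 0.00456), and 0.735 without STD 3 and STD 5. Within the 8 ENR mice r was 0.661 (exact permutation p = 0.0838; rho = 0.429, exact permutation p = 0.299), and 0.783 without ENR 1 and ENR 8. These were 4 relations, with Benjamini-Hochberg adjusted permutation p values of 4e-05 for the 16 mice, 0.00184 for the STD mice and 0.0838 for the ENR mice. In the 7 STD mice without STD 5, r was 0.942 (exact permutation p = 0.00734, adjusted 0.00979; rho = 0.857, exact permutation p = 0.0238) and 0.415 without the 2 mice farthest out, so there it rested on those mice. The part of coverage in the difference of the means was not tested. The number of CpGs with a value ranged from 323088 to 590856 in STD and from 308751 to 608017 in ENR mice (exact permutation test, p = 0.325).

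**Figure D3:**
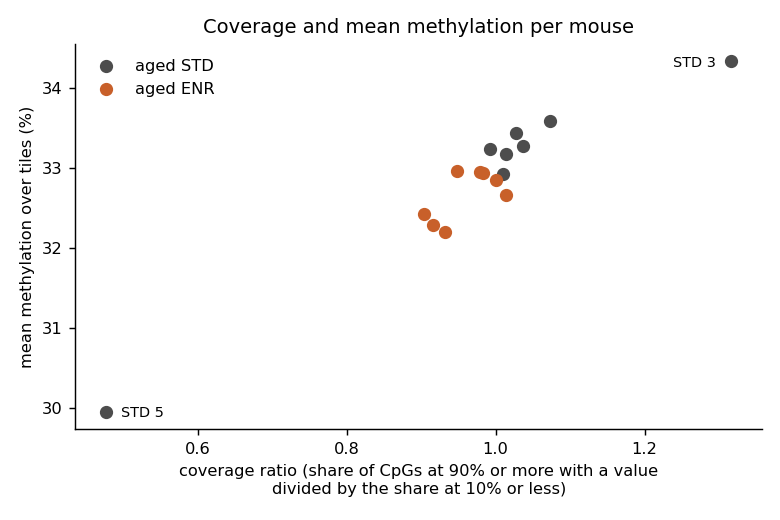
Mean methylation over the 17016 tiles shared by the 16 aged mice (percent) against the coverage ratio of each mouse. Aged STD 5 lies at the lower left (0.478, 29.9%) and aged STD 3 at the upper right (1.32, 34.3%), and the 14 other mice lie between them.

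The tiles that were hardly methylated in young mice differed between the groups with all 16 mice in the test. In the 8453 tiles under 10%, which held 6683 promoter tiles (79.1%), the mean was 3.15% ± 0.155 (SD, n = 8) in STD and 2.82% ± 0.0601 (SD, n = 8) in ENR mice. The difference was −0.334 points (exact permutation test, p = 0.000777, adjusted over 8 region and level classes 0.00622). The STD mice ranged from 2.81 to 3.33% and the ENR mice from 2.71 to 2.89%, and it was aged STD 5 that overlapped with the ENR mice. Without it the difference was −0.383 points and the groups did not overlap (exact permutation test, p = 0.000155, the smallest the permutations can give). The median over these tiles differed by 0.0825 points (exact permutation test, p = 0.777).

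The low-level tiles were therefore described further, with subsets chosen after this result was known. The promoter tiles among them had 2.61% ± 0.11 (SD, n = 8) in STD and 2.34% ± 0.0361 (SD, n = 8) in ENR mice. The STD mice lay at 2.64, 2.75, 2.70, 2.66, 2.42, 2.48, 2.63 and 2.61%, and the ENR mice at 2.42, 2.30, 2.34, 2.33, 2.32, 2.35, 2.32 and 2.32%. All 8 ENR mice were below all 8 STD mice, the closest being aged ENR 1 and aged STD 5. The difference was −0.273 points (exact permutation test, p = 0.000155; adjusted over the 8 subsets 0.000622), and leaving out each mouse in turn gave −0.301 to −0.254 points. It was −0.241 points when each CpG was first centred on its mean over the mice, so that mice covering different CpGs could be compared, and −0.268 points over the 13133 such promoter tiles with values in at least 6 mice per group. The 774 intergenic tiles had 5.64% ± 0.51 (SD, n = 8) and 4.79% ± 0.274 (SD, n = 8) (exact permutation test, p = 0.0028, adjusted 0.00559). In the 746 intronic tiles the difference was −0.382 points (exact permutation test, p = 0.108, adjusted 0.123), and it was −0.498 points without aged STD 5 (exact permutation test, p = 0.0291, adjusted 0.0332). In the 250 exonic tiles it was −0.216 points (exact permutation test, p = 0.489).

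By level, the difference was −0.116 points in the 1929 tiles at 0 to 1% in young mice, −0.216 points in the 2354 tiles at 1 to 2%, −0.425 points in the 2821 tiles at 2 to 5% and −0.662 points in the 1349 tiles at 5 to 10%. The exact permutation p values of these 4 bands were 0.00404, 0.00218, 0.000155 and 0.011, and the adjusted values were 0.00646, 0.00559, 0.000622 and 0.0147. ENR mice had the lower mean on 17 of the 19 autosomes, with differences from −0.533 to 0.0149 points. The share of the 8453 tiles at 5% or more was 19.4% ± 1.30 (SD, n = 8) in STD and 17.4% ± 0.929 (SD, n = 8) in ENR mice (exact permutation test, p = 0.00497). The share at 10% or more was 8.58% ± 1.52 (SD, n = 8) and 6.96% ± 1.70 (SD, n = 8) (exact permutation test, p = 0.0667), and that at 20% or more was 2.70% ± 0.893 (SD, n = 8) and 1.96% ± 0.878 (SD, n = 8) (exact permutation test, p = 0.119). These exact permutation p values without aged STD 5 were 0.0353 and 0.0586. The share of tiles at exactly 0 varied far more between mice, from 18.0 to 63.2% in STD and from 14.4 to 65.4% in ENR mice (exact permutation test, p = 0.697). It was lowest in the mice with the most CpGs, aged STD 6 (18.0%), aged ENR 4 (14.8%) and aged ENR 8 (14.4%). These mice also had the lowest shares at 20% or more (1.31, 0.662 and 0.757%). The part of coverage in these shares was not tested. Mitochondrial CpGs, which are taken to be nearly unmethylated, were set beside the difference at low-level tiles. They had 1.71% ± 0.901 (SD, n = 8) in STD and 1.11% ± 0.826 (SD, n = 8) in ENR mice, over 54 to 92 CpGs per mouse (exact permutation test, p = 0.188). Whether conversion, read depth or library preparation had a part in the difference at low-level tiles was not tested.

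**Figure D4:**
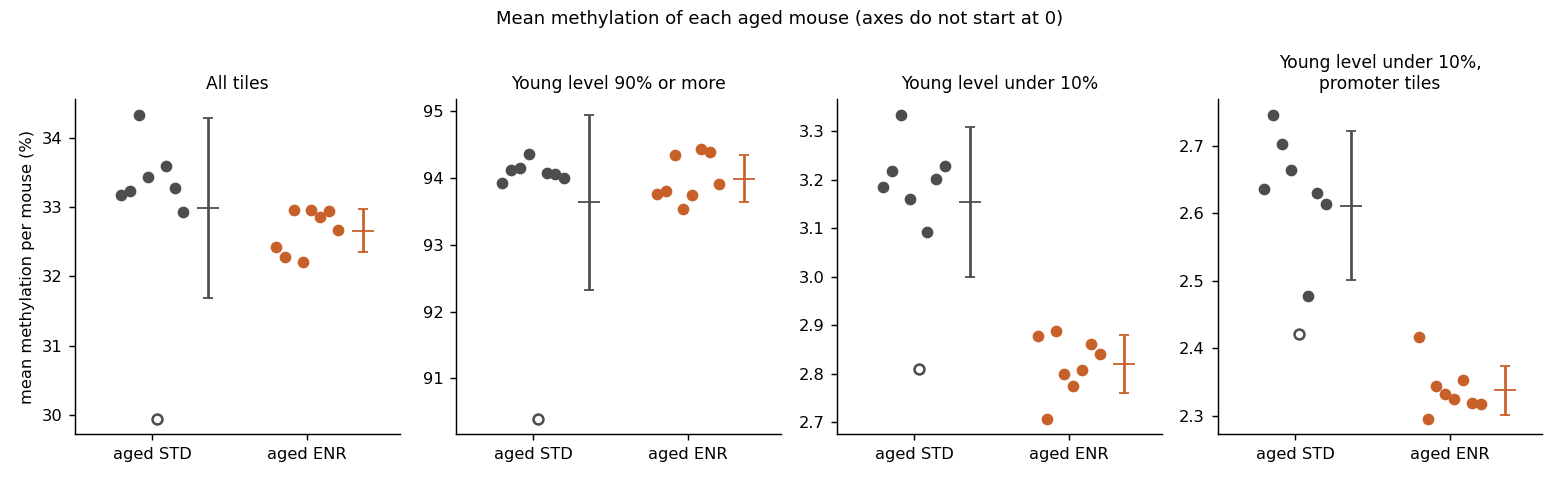
Mean methylation per mouse (percent, axes not starting at 0) over all 17016 tiles, over the tiles at 90% or more in young mice, over the 8453 tiles under 10%, and over the 6683 promoter tiles among these. Points are mice, the open point is aged STD 5, and bars give the mean ± SD. In the rightmost panel all ENR mice (2.30 to 2.42%) lie below all STD mice (2.42 to 2.75%).

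The other classes did not pass the test with all 16 mice. At 10 to 50% the means were 23.1% ± 2.83 (SD, n = 8) in STD and 21.7% ± 0.914 (SD, n = 8) in ENR mice. At 50 to 90% they were 75.0% ± 3.42 (SD, n = 8) and 75.3% ± 0.828 (SD, n = 8), and at 90% or more 93.6% ± 1.31 (SD, n = 8) and 94.0% ± 0.347 (SD, n = 8). Adjusted over the 8 classes, the exact permutation p values were 0.571, 0.972 and 0.88. Promoter tiles of every level had 9.88% ± 0.444 (SD, n = 8) and 9.59% ± 0.114 (SD, n = 8) (exact permutation test, adjusted p = 0.348). Without aged STD 5 the promoter tiles differed by −0.444 points (exact permutation test, adjusted p = 0.000622), exonic tiles by −1.06 (0.00653), intronic tiles by −1.13 (0.0116), intergenic tiles by −0.98 (0.0104) and tiles at 10 to 50% by −2.26 points (0.00539), each adjusted p being given in parentheses. Tiles at 90% or more then differed by −0.105 points (adjusted p = 0.461, exact permutation test). The coverage ratio differed between the same mice, as given above.

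Mice of the STD group differed more from each other than ENR mice. The SD over mice had a median of 6.17 points in STD and 5.40 points in ENR mice, and it was the larger one in STD mice at 58.0% of the 16995 tiles with all values and at 55.4% without aged STD 5. As a reference, over 13891 tiles with values in all 24 mice the young mice had 32.2% ± 0.605 (SD, n = 8), the aged STD mice 31.7% ± 1.25 (SD, n = 8) and the aged ENR mice 31.3% ± 0.306 (SD, n = 8). They ranged from 31.5 to 33.4%, from 28.8 to 33.0% and from 30.9 to 31.6%, so the aged STD mean depends on its lowest mouse.

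Gene lists for the biology of the dentate gyrus were described by their counts, beside the 3.6% of all tiles with an unadjusted p under 0.05 and the median difference of −0.199 points. No tile of any of the 18 lists passed the test. Of the 166 tiles of activity-induced genes, which neurons switch on after firing, 3 were higher and 3 lower at an unadjusted p under 0.05 (3.61%), with a median of −0.23 points, and it was 0 of 78 when tiles were assigned by gene body. An intergenic tile 14620 bp from the immediate-early gene Btg2 had 10.2% ± 11.8 (SD, n = 6) in STD and 0.533% ± 1.51 (SD, n = 8) in ENR mice, and a tile in an intron of Pebp4, 73703 bp from the immediate-early gene Egr3, had 4.59% ± 8.25 (SD, n = 6) and 33.3% ± 29.7 (SD, n = 6). Genes of adult neurogenesis had 3 tiles higher and 7 lower of 195 (5.13%), with a median of −0.91 points. With tiles assigned by gene body or 1 kb upstream in place of the nearest start, it was 3 of 73 (4.11%) with a median of −0.345 points. A tile nearest to Sox11, a transcription factor of immature neurons, but 204074 bp away had 68.9% ± 31.7 (SD, n = 7) in STD and 18.6% ± 20.7 (SD, n = 8) in ENR mice, the lowest difference of the list at −50.3 points. The promoter tile of the Notch effector Hes5 had 4.79% ± 2.43 (SD, n = 6) and 0.888% ± 1.45 (SD, n = 8) over 24 CpG rows.

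Growth factors and receptors had 2 tiles higher and 3 lower of 149 (3.36%). A tile of Fgfr1, a fibroblast growth factor receptor, with most of its CpG rows in exons had 89.3% ± 10.5 (SD, n = 7) in STD and 99.1% ± 1.61 (SD, n = 7) in ENR mice. The DNA methylation machinery had 1 tile higher and 0 lower of 90 (1.11%). It was at the promoter of Gadd45a, a stress-response gene linked to demethylation, with 0.565% ± 1.52 (SD, n = 8) and 2.97% ± 2.43 (SD, n = 7), and its unadjusted p was 0.0418 (limma) and 0.0606 without aged STD 5. The next tile, near Uhrf2, had 20.4% ± 13.7 (SD, n = 8) and 9.85% ± 6.90 (SD, n = 8). Of the stress hormone axis, 0 of 54 tiles had an unadjusted p under 0.05. Its leading tiles lay 4180 bp from Mc2r, the receptor for adrenocorticotropic hormone, with 95.2% ± 8.83 (SD, n = 8) and 82.9% ± 15.1 (SD, n = 8), and 78001 bp from the vasopressin receptor gene Avpr1a, with 74.9% ± 29.8 (SD, n = 7) and 94.7% ± 5.87 (SD, n = 7).

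Glutamate and GABA receptor genes had 5 tiles higher and 3 lower of 198 (4.04%). The metabotropic glutamate receptor Grm8 had 72.0% ± 12.8 (SD, n = 6) in STD and 93.6% ± 9.72 (SD, n = 7) in ENR mice in an intron, and the promoter tile of the GABA receptor subunit Gabrg3 had 1.90% ± 2.31 (SD, n = 8) and 5.83% ± 2.40 (SD, n = 8) over 28 CpG rows. Synaptic scaffold, adhesion and release genes had 2 higher and 2 lower of 226 (1.77%). Among these were the postsynaptic scaffold genes Shank2, with 79.0% ± 13.3 (SD, n = 6) and 98.6% ± 3.68 (SD, n = 7), and Dlg2, with 10.5% ± 12.3 (SD, n = 6) and 38.1% ± 24.1 (SD, n = 6). Axon guidance genes had 8 higher and 4 lower of 432 (2.78%). An intronic tile of the ephrin receptor Epha5 had 76.7% ± 15.2 (SD, n = 8) and 94.3% ± 7.08 (SD, n = 8), and a tile in an intron of the netrin receptor gene Unc5b had 6.42% ± 17.6 (SD, n = 8) and 39.6% ± 34.0 (SD, n = 7).

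Imprinted genes, in which one parental copy is methylated, had 0 of 104 tiles at an unadjusted p under 0.05. Their per-mouse mean ranged from 40.5 to 53.1% in STD and from 46.0 to 51.9% in ENR mice. The leading tiles were at Zrsr1, with 23.5% ± 24.2 (SD, n = 7) and 56.0% ± 35.0 (SD, n = 8), and in an intron of Kcnq1, 46811 bp from the cyclin-dependent kinase inhibitor gene Cdkn1c, with 70.4% ± 16.4 (SD, n = 7) and 86.9% ± 17.7 (SD, n = 8). Germline genes, which are kept methylated in somatic tissue, had 1 tile lower of 25 (4.0%). It was a promoter tile of the germ cell gene Dazl with 8.67% ± 9.24 (SD, n = 7) and 0.675% ± 1.66 (SD, n = 8), and a further promoter tile of Dazl had 94.1% ± 6.43 (SD, n = 6) and 99.1% ± 1.37 (SD, n = 8).

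Of the tiles of genes at which the study followed up single positions, 1 was higher and 1 was lower of 59 (3.39%). The tiles named here are those of lowest p for each gene and were not chosen by the positions that were followed up. Tiam1, a Rac activator of dendritic spines, had 23 tiles with differences from −29.1 to 24.7 points and a lowest unadjusted p of 0.0648, at an intergenic tile 30782 bp from its start with 96.9% ± 6.37 (SD, n = 7) in STD and 88.6% ± 9.54 (SD, n = 8) in ENR mice. The 17 tiles of the zinc finger gene Tshz2 ran from −34.3 to 23.4 points, and its tile of lowest p had 83.2% ± 16.6 (SD, n = 6) and 49.0% ± 35.8 (SD, n = 8). For Cux2, a transcription factor of upper-layer cortical neurons, 18 tiles ran from −22.3 to 24.1 points. Its exonic tile with 34 CpG rows had 90.7% ± 5.80 (SD, n = 8) and 96.7% ± 1.97 (SD, n = 8). The activity-induced gene Npas4 had 1 tile, at its promoter, with 3.52% ± 6.56 (SD, n = 8) and 13.0% ± 12.3 (SD, n = 8) over 31 CpG rows (limma, unadjusted p = 0.0563).

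Marker genes of the cell types of the tissue were checked in the same way. Granule neuron markers had 3 tiles higher and 2 lower of 63 (7.94%), pyramidal neuron markers 1 and 0 of 51 (1.96%) and interneuron markers 2 and 4 of 94 (6.38%). Astrocyte markers had 1 and 3 of 63 (6.35%), oligodendrocyte markers 1 and 2 of 60 (5.0%), microglia markers 0 of 21 and endothelial markers 1 and 2 of 43 (6.98%). The shares above 3.6% rest on 3 to 6 tiles each. Assigned by gene body, 2 of 39 tiles of granule neuron markers (5.13%), 1 of 28 of astrocyte markers (3.57%), 0 of 29 of pyramidal neuron markers and 0 of 19 of endothelial markers had an unadjusted p under 0.05. By the same assignment it was 3 of 50 for interneuron markers (6.0%), 2 of 27 for oligodendrocyte markers (7.41%) and 0 of 21 for microglia markers. Promoter tiles of the granule neuron markers had per-mouse means of 0.99 to 5.25% in STD and 1.66 to 6.09% in ENR mice. The group means of the promoter tiles were 2.92% in STD and 3.19% in ENR mice for the 13 tiles of granule neuron markers, 3.09 and 4.15% for the 12 of pyramidal neuron markers and 4.68 and 5.14% for the 12 of interneuron markers. They were 8.03 and 6.77% for the 10 of astrocyte markers, 11.9 and 15.2% for the 8 of oligodendrocyte markers and 2.36 and 2.66% for the 3 of endothelial markers, and no promoter tile of a microglia marker had a value in all 16 mice. The promoters of the granule neuron markers were thus low, but so were those of pyramidal neuron, interneuron and endothelial markers. These levels do not settle the label of the tissue.

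Among the named marker tiles, one 27082 bp from C1ql2, a synaptic protein of mossy fibres, had 76.3% ± 14.2 (SD, n = 7) in STD and 93.8% ± 7.94 (SD, n = 8) in ENR mice, and one 234791 bp from Stxbp6 had 26.5% ± 7.56 (SD, n = 7) and 12.1% ± 10.03 (SD, n = 7). The promoter tile of Reln, the secreted guidance protein reelin, had 7.15% ± 3.63 (SD, n = 8) and 1.67% ± 2.25 (SD, n = 8), and a tile 19746 bp from the interneuron gene Dlx2 had 90.8% ± 5.54 (SD, n = 7) and 64.2% ± 25.4 (SD, n = 8). Of the pyramidal markers, a tile 9572 bp from Nr4a2 was at 0 in all 8 STD mice and at 7.43% ± 9.80 (SD, n = 7) in ENR mice. In glia, the glutamate transporter gene Slc1a3 had 99.93% ± 0.182 (SD, n = 6) and 89.96% ± 10.2 (SD, n = 7), and an intergenic tile 160412 bp from the gap junction gene Gja1 had 97.4% ± 4.37 (SD, n = 7) and 86.5% ± 11.9 (SD, n = 7). An intronic tile of the myelin gene Mbp had 3.71% ± 6.48 (SD, n = 6) and 25.8% ± 24.1 (SD, n = 8). One 5420 bp from the myelin gene Cldn11 had 95.9% ± 6.36 (SD, n = 7) and 79.3% ± 19.4 (SD, n = 6). Tiles of the microglia genes Ptprc and Tmem119 had 86.7% ± 21.6 (SD, n = 6) and 99.92% ± 0.214 (SD, n = 7), and 71.5% ± 21.8 (SD, n = 7) and 85.2% ± 11.7 (SD, n = 8). For endothelium, a tile 147125 bp from Cdh5 was at 100% in all 8 STD mice and at 89.0% ± 8.16 (SD, n = 7) in ENR mice, and one 131958 bp from Kdr had 78.5% ± 16.2 (SD, n = 8) and 60.9% ± 9.32 (SD, n = 7), with an unadjusted p of 0.0419 (limma) and of 0.0543 without aged STD 5.

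**Figure D5:**
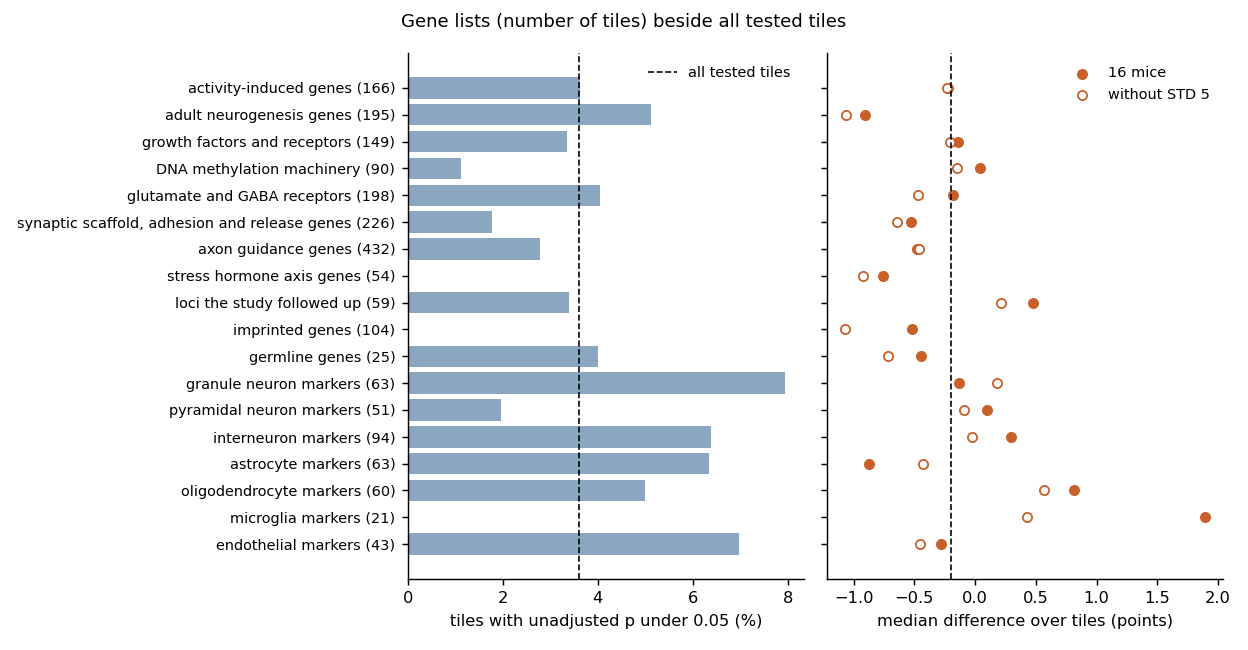
Left, the percent of tiles with an unadjusted p under 0.05 in each of the 18 gene lists (number of tiles in parentheses), and right, the median difference over its tiles (percentage points, ENR minus STD) with all 16 mice (filled) and without aged STD 5 (open). Dashed lines give all tested tiles (3.6% and −0.199 points), and no list held a tile that passed the test.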

How the data were processed

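DNA of micro-dissected dentate gyrus from single female mice was profiled by RRBS in single-end reads. The authors mapped the reads to mm10 and deposited the methylation percent of each CpG, per strand and mouse. Per the labels they used Trim Galore 0.4.0, cutadapt 1.8.1, Bismark 0.16.1 and methylKit 1.5.2, and the methods name other versions of Trim Galore and Bismark. Per the methods, sites of low or extreme coverage were removed, and a value in several mice of each group was required. Read numbers were not analysed here, so the depth behind each percent is unknown and no interval of a single value is given.

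Of 694379 CpGs, 672847 were autosomal and 672834 of these lie at a CG of GRCm38. Per-mouse tile means were fitted with limma 3.58.1 in R 4.3.3 (2 groups, variance trend, tiles equal in all mice left out), with Benjamini-Hochberg adjustment and a threshold of 0.05. For per-mouse values, two-sided exact permutation tests ran over the 12870 relabelings of the 16 mice. The 17016 tiles with values in all 16 mice gave the per-mouse means. The classes of level came from the young mice (at least 3 with a value). Tiles were annotated by their midpoint with GENCODE M21. Python 3.11.15, numpy 2.4.6, pandas 2.3.3, scipy 1.17.1, matplotlib 3.10.9 and samtools 1.23.1 were used, and the limma script was tested on simulated data. The correlation between 2 aged mice was 0.852 to 0.970, and at most 77.0% of their CpG values were identical.

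Named tiles were 8 per direction by lowest p (difference of at least 10 points, at least 7 mice per group), 2 per gene list, 3 promoter tiles per direction and the tiles of 4 genes at which the study followed up single positions. Of the list tiles, 2 are not reported here. The comparison and the lists were chosen with earlier results of these data known. The mitochondrial measure, the centred per-mouse means and the subsets of low-level tiles were added after seeing the data.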

Additional observations from a re-analysis of the deposited data

Results flagged for a closer look

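Values that stood apart from the other mice of their group by Dixon's criterion are given here. Chance gives such a value in about 1 in 20 independent groups of normally distributed values. Among 28 groups of per-mouse measures there were 10, but these measures overlap and come from the same mice, and all 10 were aged STD 5, as the lowest of 8. Its mean methylation was 29.9% over all tiles (other STD mice 32.9 to 34.3%), 8.82% over promoter tiles, 44.5% over exonic, 43.9% over intronic and 53.9% over intergenic tiles. By level it was 2.81% in tiles under 10% in young mice (others 3.09 to 3.33%), 66.9% at 50 to 90% and 90.4% at 90% or more. Its coverage ratio was 0.478 (others 0.992 to 1.32), and its low-level intergenic tiles had 4.47%.

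In the leading tiles, 7 of 32 groups held such a value. They were aged ENR 4 at Rbm19 (77.2%, others from 90.3%), aged STD 7 at Rgs3 (6.88%), aged STD 6 at Casr (14.3%), aged STD 3 at Pianp (2.94%), aged STD 8 at Bdkrb2 (31.2%), aged ENR 8 at Alx4 (14.7%) and aged STD 3 at Rab11fip2 (86.4%, all others at 100%). At Rgs3, Casr and Pianp the other STD mice were at 0. Where all other mice share a value, as there and at Rab11fip2, any single deviating mouse is flagged. The leading tiles were also chosen by low p, so the chance rate above does not apply to them.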

How the results depend on the processing

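Across 30 other settings of the tile test, 0 tiles passed in each, the lowest adjusted p being 0.163 (no variance trend), and the tiles with an unadjusted p under 0.05 made up 3.28 to 4.52%. Their number was 1399 to 1596 when a mouse was left out, 1097 (606 of them lower in ENR mice) with at least 5 CpG rows per tile, and 642 (267 higher and 375 lower) with values in all 8 mice per group, where fewer tiles were tested. Replicate numbers did not pair the mice (correlation of the deviations of same-numbered mice −0.00858 to 0.0166, 1 of 8 matching its own number best). A fit with the replicate block gave 0 calls and 1568 tiles with an unadjusted p under 0.05, and the paired exact permutation test of the mean methylation gave −0.329 points (p = 0.5625).

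Leaving out a mouse moved the mean difference over all tiles between −0.764 and −0.138 points, and that at 50 to 90% and at 90% or more between −0.943 and 0.662 and between −0.105 and 0.460 points. Without aged STD 5 it passed the exact permutation test as −0.764 points (p = 0.000622), as −0.695 (p = 0.000311) with CpG-centred tiles, as −1.30 (p = 0.0174) over all tested tiles and as −0.76 (p = 0.00404) over CpGs with values in all 16 mice, the last 3 settings being chosen after seeing the data. The coverage ratio differed by −0.107 without aged STD 5 and by 0.0124 without aged STD 3. The sign turned for medians over promoter (0.0465 points), intergenic (0.388), low-level (0.0825), low-level promoter (0.081) and 90%-or-more tiles (−0.483), for intergenic tiles over all tested tiles (0.156), and without aged STD 5 for tiles at 50 to 90% (−0.943) and at 90% or more (−0.105). The cause was not tested. STD mice had the larger SD at 55.4% of the tiles without aged STD 5. The 16 leading tiles kept their sign in all 352 values computed. They were chosen by low p in these same mice, so this is no support for them. List medians near 0 changed sign. Without aged STD 5 this held for granule neuron (0.18 points), pyramidal neuron (−0.091), interneuron (−0.025) and DNA methylation genes (−0.15), and with tiles assigned by gene body for granule neuron (0.297) and endothelial markers (1.31).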
